A study of Mus musculus with 3 samples.

Results

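Keratin-rich cells are described here within organoids of the mouse submandibular salivary gland, and were the barcodes richest in 4 transcripts of the basal layer, Krt5, Krt14, Krt15 and Trp63. A barcode is the sequence tag that stands for 1 captured cell, and a unique molecular identifier (UMI) counts 1 transcript molecule. Among barcodes with at least 2000 UMIs, at least 500 detected genes and at most 20% mitochondrial UMIs, the 10% with the highest share of UMIs summed over the 4 genes were taken within each library. The rule gave 793 of 7939 barcodes in proton, 1089 of 10891 in photon and 962 of 9620 in control, or 2844 of 28450 in all, out of 44717 deposited barcodes. The members were therefore chosen from measured values, and the levels of the 4 genes in them are a description and not a result. By the same choice every library holds the same share of such cells, so their number carries no information on irradiation.

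The organoids were grown from the glands of C57BL/6 mice aged 8 to 12 weeks. Cells of 4 animals were cultured in Matrigel in a medium with EGF, FGF2, insulin, dexamethasone, the ROCK inhibitor Y27632 and medium conditioned with R-spondin1 and with Wnt3a, and the labels do not tie barcodes to animals. The groups were organoids that received a 7 Gy dose of plateau protons on day 5, organoids that received 7 Gy of photons on day 5, and control organoids that were not irradiated, with all 3 groups in the same medium, handled on the same day and collected on day 11. After dissociation, 45000 cells per group that excluded propidium iodide, a dye of dead cells, were sorted and loaded for 10x Genomics 3′ sequencing.

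Each group was 1 library, so no difference between groups could be tested and none has a replicate check. Each value is a sum of UMIs over barcodes, given as CPM, the count of a gene per 1000000 UMIs of that sum, and ranges in parentheses after a fold are 95% intervals of counting error alone. A gene was counted as higher or lower where the fold was at least 1.5 and the mean level at least 25 CPM over the groups compared. The proton and photon comparisons share the control library. The keratin-rich barcodes held 2810709 UMIs in proton, 4089248 in photon and 3629085 in control, with medians of 3212, 3462 and 3423 UMIs per barcode against 3102.5, 3369 and 3192.5 in the other barcodes. Ribosomal protein genes took 25.8%, 21.9% and 19.7% of their UMIs in proton, photon and control, against 20.8%, 18.9% and 17.3% in the other barcodes. Mitochondrial genes took 1.67%, 1.79% and 2.53%, against 1.70%, 2.14% and 2.85%. Barcode sequences recur between libraries, with 57 deposited barcodes shared by proton and photon, 61 by proton and control and 55 by photon and control, but of the keratin-rich ones 1 was shared by proton and photon and none by either with control.

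Keratins are the intermediate filament proteins of epithelial cells, and they assemble as pairs of a type II and a type I chain. Krt5 and Krt14 form the pair of basal cells, which rest on the basement membrane and are joined to it by hemidesmosomes, while p63, the product of Trp63, is the transcription factor that maintains basal and stratified epithelia. In the salivary gland, basal cells of the ducts and myoepithelial cells around the acini carry Krt5 and Krt14. As a stratified epithelium matures, cells leave the basement membrane and switch to other keratins and cornified envelope precursors, among them Krt10, Krt13, Krt6a, Krt16 and the small proline-rich proteins.

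The 4 genes of the rule set the cells apart by different amounts in the 3 libraries. The summed share of the 4 was at least 0.411015% in the keratin-rich barcodes of proton, 0.83089% in photon and 0.672468% in control. The highest barcodes left outside stood at 0.410959% in proton, 0.830816% in photon and 0.672344% in control, so the cut falls within a continuous range. Within 10% of the cut lay 476 barcodes in proton, 664 in photon and 594 in control. The median share of the keratin-rich barcodes was 0.508% in proton, 1.01% in photon and 0.831% in control, and that of the other barcodes 0.155%, 0.313% and 0.282%. With the control library's cut applied to all, 136 proton barcodes (1.71%) and 1927 photon barcodes (17.7%) would pass, against 962 (10.0%) of control.

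Krt14 (chromosome 11, 100203162 to 100207548, GRCm38), the type I basal keratin, stood at 2737 CPM in proton, 6186 CPM in photon and 3908 CPM in control in the keratin-rich barcodes. Photon was highest and proton lowest. Krt5 (chromosome 15, 101707070 to 101712898), its type II partner, stood at 2032 CPM in proton, 2425 CPM in photon and 2015 CPM in control, a much narrower range. Krt15 (chromosome 11, 100131758 to 100135928), a keratin of quiescent basal cells, stood at 709 CPM in proton, 2307 CPM in photon and 3067 CPM in control, with control highest. Trp63 (chromosome 16, 25683763 to 25892102) stood at 261 CPM in proton, 138 CPM in photon and 204 CPM in control and ran in the opposite order to Krt14. The other barcodes held 660.4, 1806 and 1360 CPM of Krt14, 676, 960.1 and 891 CPM of Krt5, 196, 560.3 and 543 CPM of Krt15 and 128, 95.0 and 165 CPM of Trp63 in proton, photon and control. No test applies, since the rule used these values.

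**Figure D1:**
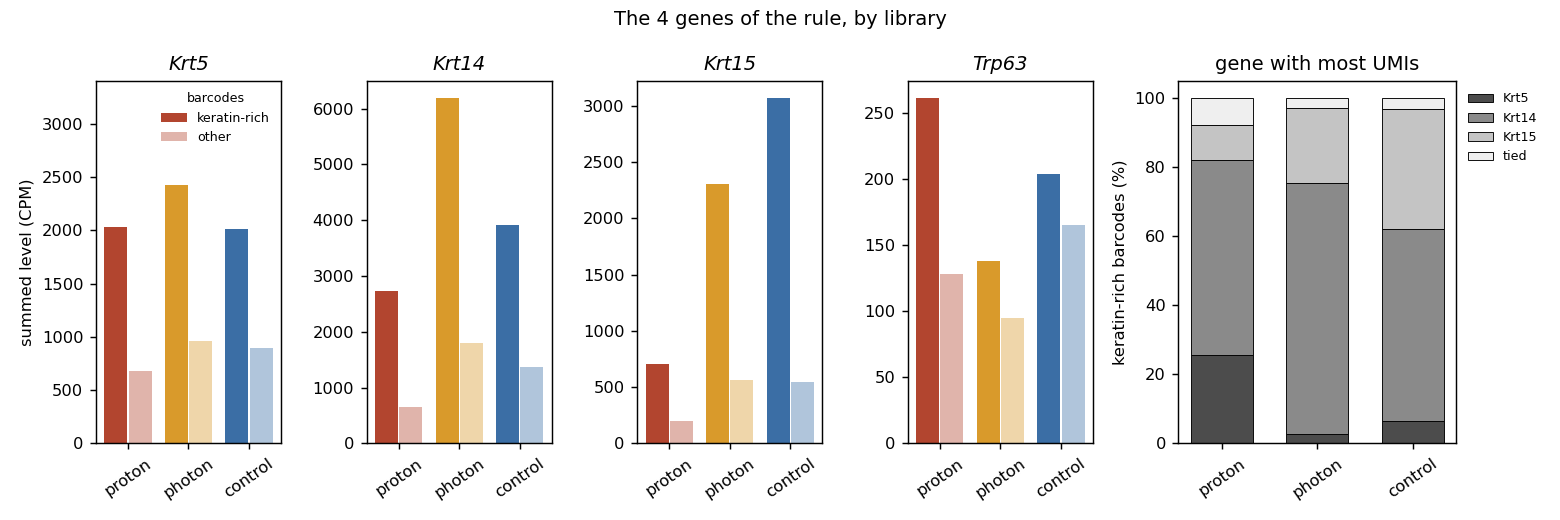
Summed level in CPM of the 4 genes that define the keratin-rich barcodes, in proton, photon and control from left to right, with dark bars for keratin-rich and light bars for other barcodes, and at right the percent of keratin-rich barcodes in which Krt5, Krt14 or Krt15 had the most UMIs. Krt14 led in 56.4% of the proton, 72.7% of the photon and 55.9% of the control barcodes, Krt5 in 25.7% of proton barcodes and Krt15 in 34.8% of control barcodes.

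The keratin-rich barcodes differed among themselves in which of the 4 genes dominated. Krt14 had the most UMIs in 56.4% of them in proton (52.8 to 59.9), 72.7% in photon (70.0 to 75.4) and 55.9% in control (52.7 to 59.1) (exact binomial intervals for the counting of barcodes alone). Krt15 led in 10.2% (8.19 to 12.5) of proton, 21.7% (19.3 to 24.2) of photon and 34.8% (31.8 to 37.9) of control barcodes. Krt5 led in 25.7% (22.7 to 28.9) of proton barcodes, against 2.66% (1.79 to 3.8) in photon and 6.34% (4.88 to 8.07) in control. Since the rule used these genes and each group is 1 library, the shares are a description.

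The label of basal cells was checked against markers that the rule did not use. Of 15 other markers of basal duct cells, 14 reached 25 CPM, and 1 of these was at least 1.5-fold higher in the keratin-rich than in the other barcodes in all 3 libraries. None was lower in all 3. Over all 5690 genes measured, 1.21% were higher and 2.62% lower in all 3 libraries. The median log2 ratio of the basal markers was 0.01 in proton, 0.0 in photon and -0.12 in control, beside -0.156, -0.124 and -0.075 over all genes. The marker that passed was Sfn, which encodes the 14-3-3 sigma adaptor of keratinocytes and is also high above the basal layer. Its ratio was 2.62-fold (2.46 to 2.79) in proton, 2.37-fold (2.28 to 2.47) in photon and 1.84-fold (1.75 to 1.93) in control.

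The hemidesmosome and basement membrane genes, which set a basal cell apart by its attachment, were close to the level of the other barcodes. Itgb4 (chromosome 11, 115974709 to 116008412), the integrin beta-4 chain of the hemidesmosome, stood at 288 CPM in proton, 142 CPM in photon and 161 CPM in control in keratin-rich barcodes and at 290.0, 169 and 172 CPM in the others, a ratio of 0.993-fold (0.922 to 1.07) in proton, 0.843-fold (0.773 to 0.918) in photon and 0.940-fold (0.862 to 1.02) in control. Itga6, its partner chain, had ratios of 1.02 in proton, 0.912 in photon and 0.800 in control, and Col17a1, a collagen of the same structure, 1.29 in proton, 1.04 in photon and 1.33 in control. Of 16 measured genes of the 22 listed, none was higher and Lama5, a laminin chain, was lower in all 3 libraries, with median log2 ratios of -0.06 in proton, -0.30 in photon and -0.08 in control. The shares over all genes were 1.21% higher and 2.62% lower in all 3 libraries. These data go against the word basal as what separates the chosen barcodes from the rest, since basal attachment genes were about as high outside them, and the name keratin-rich is kept.

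Markers of myoepithelial, acinar, fibroblast, immune and endothelial cells were low, and those of luminal duct cells were not. Of the myoepithelial genes, Acta2, the smooth muscle actin that defines these cells, stood at 0.712 CPM in proton, 0.489 CPM in photon and 0.276 CPM in control, and Myh11 and Cnn1 at no more than 0.356 CPM, while Tpm2, a tropomyosin shared by many cells, stood at 141 CPM in proton, 327 CPM in photon and 235 CPM in control. The acinar list summed to 35.2, 24.5 and 38.6 CPM in proton, photon and control, with the mucin-like secretory gene Smgc at 0. Fibroblast genes summed to at most 0.712 CPM, immune genes to at most 1.38 CPM and endothelial genes to at most 1.42 CPM in any library. The luminal duct list summed to 2590, 4189 and 4015 CPM in proton, photon and control, near the 3536, 4686 and 4757 CPM of the basal duct list. Of its genes, Krt7 ran at 1063, 1468 and 1250 CPM in proton, photon and control, Krt8 at 226, 329.9 and 226 CPM and Krt18 at 517, 818 and 772 CPM, while Kit and Muc1 were at 0. Relative to the other barcodes, 4 of 8 measured luminal genes were lower and 1 was higher in proton, 3 were lower in photon and none passed 1.5-fold in control. Over all genes, 11.1% were lower and 3.36% higher in proton, 12.2% and 2.13% in photon, and 3.76% and 1.9% in control. The single luminal gene that was higher in proton was Krt19, at 1.71-fold.

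What the keratin-rich barcodes carried beyond the rule was a set of suprabasal and squamous genes. Of 15 squamous genes listed, 10 reached 25 CPM, and 7 of them were higher than in the other barcodes in all 3 libraries and none lower. Over all genes, 1.21% were higher and 2.62% lower in all 3. The summed level of the 15 genes, which includes Sprr1a, was 1.97-fold that of the other barcodes in proton and 1.85-fold in photon. In control it was 1.05-fold, so the list as a whole was level there. The median log2 ratio of the 10 measured genes was 2.31 in proton, 1.96 in photon and 1.16 in control. Genes such as Krt16 reached the 25 CPM limit through the keratin-rich barcodes alone, where they are high. This can raise the count of 7 and these medians. Because the barcodes were chosen by keratin content in the same cells, these ratios describe what travels with the rule genes, and no test was made of them.

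Krtdap (ENSMUSG00000074199, chromosome 7, 30787896 to 30791097, forward strand), a secreted protein of differentiating keratinocytes, stood at 1338 CPM in proton, 884 CPM in photon and 154 CPM in control in keratin-rich barcodes. The other barcodes held 171, 118 and 25.9 CPM. Its ratio was 7.84-fold (7.50 to 8.19) in proton, 7.48-fold (7.16 to 7.82) in photon and 5.93-fold (5.31 to 6.61) in control, and both irradiated libraries were far above control on either side of the cut. Krt13 (ENSMUSG00000044041, chromosome 11, 100117327 to 100121566, reverse strand), the keratin of non-cornified suprabasal layers, stood at 307 CPM in proton, 511 CPM in photon and 164 CPM in control, against 37.5, 58.4 and 79.3 CPM in the other barcodes. Keratin-rich barcodes were higher in each library, by 8.19-fold (7.46 to 8.99) in proton, 8.74-fold (8.22 to 9.28) in photon and 2.07-fold (1.89 to 2.27) in control, and control had the smallest ratio.

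Krt6a and Krt16, the pair of keratins of activated and wound-edge keratinocytes, were also high. Krt6a stood at 503 CPM in proton, 616 CPM in photon and 302 CPM in control against 74.6, 114 and 87.8 CPM in the other barcodes, and Krt16 at 49.8 CPM in proton, 149 CPM in photon and 39.1 CPM in control against 3.86, 9.41 and 6.63 CPM. The ratios of Krt16 were 12.9-fold (9.91 to 16.9) in proton, 15.8-fold (13.8 to 18.1) in photon and 5.90-fold (4.74 to 7.34) in control, the largest of the 10 measured squamous genes in proton and photon. Of all 50-base words in the last 500 bases of the Krt16 transcripts, 16.9% also occur in Krt14, Krt17 or the model Gm11597, so part of its count is uncertain next to Krt14, while Krt6a, Krt13 and Krtdap share none with any other gene. Dmkn, a secreted keratinocyte protein, had ratios of 5.42 in proton, 4.92 in photon and 2.40 in control, Sprr1b, a cornified envelope precursor, 3.24 in proton, 2.76 in photon and 2.52 in control, and Sbsn, another secreted protein of suprabasal cells, 2.19 in proton, 2.41 in photon and 1.57 in control. Krt10, the keratin of the cornifying spinous layer, was 4.52 in proton, 2.18 in photon and 1.07 in control and so was level with the other barcodes in control. Sprr1a went the other way, at 679.5 CPM in proton, 808 CPM in photon and 1967 CPM in control in keratin-rich and 1318, 1440 and 2470 CPM in other barcodes, with ratios of 0.516 in proton, 0.562 in photon and 0.796 in control. Krt1, Krt4, Cnfn, Ivl and Sprr3 stayed under 25 CPM, and Krt1, which is defining for the epidermis, stood at 0.356 CPM in proton, 0.734 CPM in photon and 0.276 CPM in control.

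The promoters of Krtdap and Krt13, 2 squamous genes with large ratios in both irradiated libraries, are shown because the members of this list share a motif there. The 250 bases before the RefSeq start of each gene (GRCm38.p6; Krtdap on the forward and Krt13 on the reverse strand, read 5′ to 3′) are given with the match to the AP-1 motif TGANTCA in capitals.
Krtdap chr7:30787655-30787904: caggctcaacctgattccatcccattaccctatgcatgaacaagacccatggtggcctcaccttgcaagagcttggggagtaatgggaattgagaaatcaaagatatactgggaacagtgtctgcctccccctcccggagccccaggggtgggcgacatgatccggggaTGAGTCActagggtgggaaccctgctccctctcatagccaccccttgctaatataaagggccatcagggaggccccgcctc
Krt13 chr11:100121567-100121816: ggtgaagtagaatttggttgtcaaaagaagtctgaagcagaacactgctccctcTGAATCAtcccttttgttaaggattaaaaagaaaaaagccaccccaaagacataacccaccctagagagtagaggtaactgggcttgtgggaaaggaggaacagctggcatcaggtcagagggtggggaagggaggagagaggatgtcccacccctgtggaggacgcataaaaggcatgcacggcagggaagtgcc
The Krtdap match ends 75 bases and the Krt13 match 190 bases before the start. Searched on both strands from 250 bases before to 50 bases after the start, with N as any base and each gene counted once whatever the number of matches, the motif occurred in 8 of the 11 squamous genes with a promoter in the table (72.7%) and in 2425 of 27025 genes (8.97%). The 8 included Sprr1a, which was lower in keratin-rich barcodes. Of the interferon list below, 11 of 32 genes held it (34.4%), and of the cholesterol list 2 of 11 (18.2%). A match is a stretch of letters and not a measured site.

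**Figure D2:**
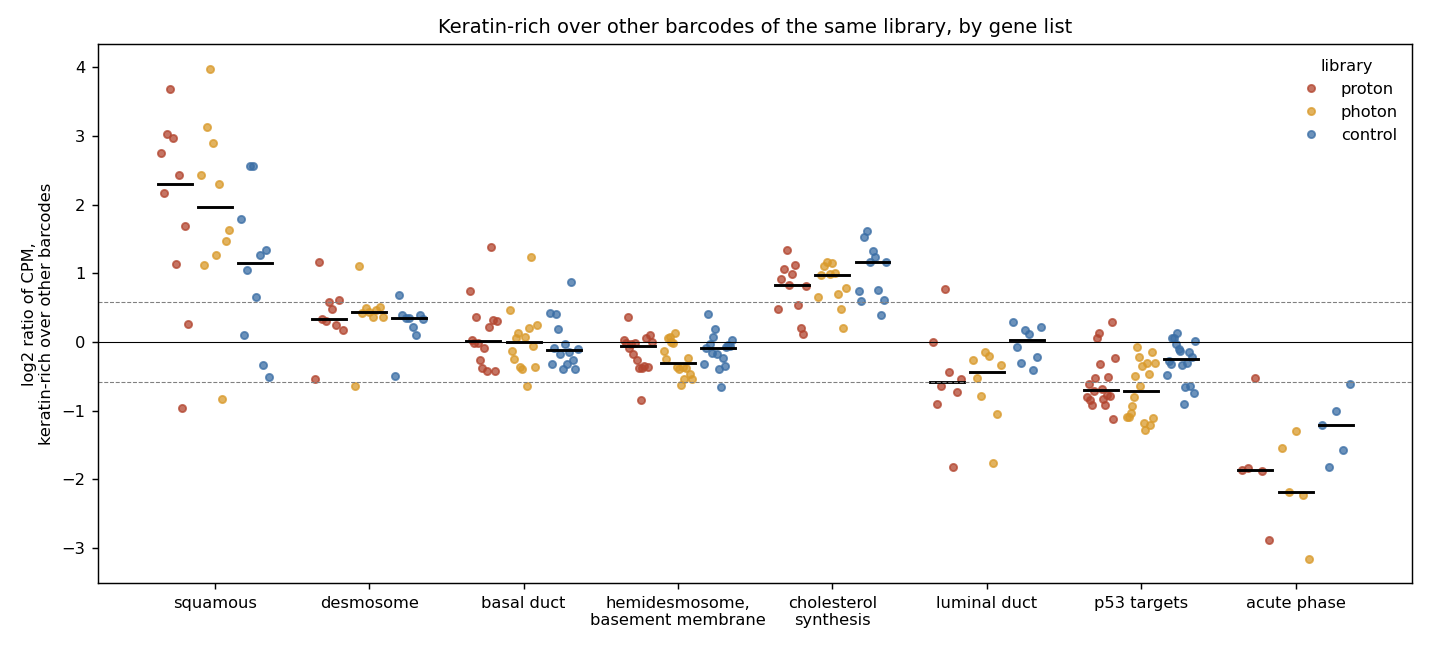
Log2 ratio of CPM in keratin-rich over other barcodes of the same library, 1 point per measured gene of 8 lists, with proton, photon and control from left to right, a black bar at each median and dashed lines at 1.5-fold. Squamous and cholesterol genes lie mostly above 0, with medians of 2.31, 1.96 and 1.16 and of 0.83, 0.98 and 1.17. The squamous gene Sprr1a lies below 0 in each library. Basal duct and hemidesmosome genes lie around 0, and p53 targets and acute phase genes lie mostly below it.

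A few further genes of stratified epithelia were higher in the keratin-rich barcodes. Dsg3, the desmosomal cadherin of stratified epithelia, stood at 162 CPM in proton, 145 CPM in photon and 119.6 CPM in control, against 72.1, 67.2 and 74.0 CPM in the other barcodes, and was the single gene of 9 measured desmosome genes that passed in all 3 libraries, with ratios of 2.25 in proton, 2.15 in photon and 1.61 in control. Of all genes, 1.21% were higher in all 3 libraries. Dsg2, the desmosomal cadherin of simple epithelia, had ratios of 0.685 in proton, 0.640 in photon and 0.710 in control. Fabp5 (chromosome 3, 10012548 to 10016607), the fatty acid binding protein of keratinocytes, stood at 9231 CPM in proton, 12420 CPM in photon and 4133 CPM in control, against 2081, 2968 and 1532 CPM. Its ratio was 4.43-fold (4.37 to 4.50) in proton, 4.19-fold (4.14 to 4.23) in photon and 2.70-fold (2.65 to 2.75) in control. Lgals7, galectin-7 of stratified epithelia, stood at 639 CPM in proton, 788 CPM in photon and 235 CPM in control and Tmprss11b, a serine protease of squamous epithelia, at 111 CPM in proton, 78.7 CPM in photon and 46.0 CPM in control, with ratios of 4.28 in proton, 2.96 in photon and 2.75 in control and of 5.61 in proton, 5.48 in photon and 5.10 in control. Sptssb, a subunit of the enzyme that starts sphingolipid synthesis, had ratios of 8.18 in proton, 9.66 in photon and 5.02 in control. Barx2, a homeobox transcription factor of gland development, had ratios of 4.33 in proton, 4.83 in photon and 3.24 in control.

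Fabp4, the fatty acid binding protein of adipocytes and of sebaceous and other epithelial cells, stood at 610.2 CPM in proton, 297 CPM in photon and 24.8 CPM in control, against 58.6, 87.2 and 8.90 CPM in the other barcodes. All 90 control UMIs came from 8 barcodes. Without the 10 barcodes richest in it on each side, the ratio was 8.41 (7.72 to 9.18) in proton and 2.86 (2.64 to 3.10) in photon, and in control, where no UMI was left, at most 0.391 by a floor of 3 UMIs. That setting was added after the values were seen.

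Genes of cholesterol synthesis were higher as well. Of 11 measured genes of the 17 listed, 7 passed in all 3 libraries and none was lower, with median log2 ratios of 0.83 in proton, 0.98 in photon and 1.17 in control. The shares over all genes were 1.21% higher and 2.62% lower. Among the 7 were Hmgcs1, Idi1, Fdps, Fdft1, Sqle and Cyp51, which are enzymes of the pathway. Fdps, farnesyl diphosphate synthase, stood at 270.4 CPM in proton, 409 CPM in photon and 145 CPM in control, against 107, 182 and 47.1 CPM in the other barcodes, and Cyp51, lanosterol demethylase, at 172 CPM in proton, 311 CPM in photon and 140.5 CPM in control, against 78.6, 155 and 59.7 CPM. Their ratios were 2.52 in proton, 2.25 in photon and 3.07 in control for Fdps and 2.18 in proton, 2.00 in photon and 2.35 in control for Cyp51. Of the 50-base words of Fdps and Idi1, 74.0% and 43.2% also occur in gene models without an official name. Part of their counts is therefore uncertain, and Cyp51 was not searched for such words. The sterol motif TCACNCCAC was found in the promoter of 1 of 11 genes of the list, Hmgcs1, against 388 of 27025 genes (1.44%).

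In the glutathione and NRF2 list, Gsta4, which detoxifies lipid aldehydes, had ratios of 2.21 in proton, 2.10 in photon and 1.56 in control and Nqo1, a quinone reductase, 2.21 in proton, 2.29 in photon and 1.77 in control. Gclc, the rate-limiting enzyme of glutathione synthesis, had 0.516 in proton, 0.573 in photon and 0.634 in control, and Hmox1, heme oxygenase, 0.451 in proton, 0.536 in photon and 0.643 in control. The list thus held 2 higher and 2 lower genes of 12 measured. Over all genes, 1.21% were higher and 2.62% lower in all 3 libraries. Of 11 measured S phase genes, 3 were higher in all libraries, the helicase subunits Mcm3 and Mcm4 and the ribonucleotide reductase gene Rrm2. No G2 and M phase gene of 13 passed in all 3, although 6 were higher in proton, where Mki67 was 1.63-fold the level of the other barcodes, against 1.07-fold in photon and 0.715-fold in control. Of all genes, 3.36% were higher in proton.

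Acute phase genes were lower in the keratin-rich barcodes. Lcn2 (chromosome 2, 32384633 to 32388252), the iron-scavenging lipocalin of the acute phase, stood at 499.5 CPM in proton, 397 CPM in photon and 972 CPM in control, against 1844, 1849 and 2889 CPM in the other barcodes, with ratios of 0.271-fold (0.257 to 0.286) in proton, 0.215-fold (0.204 to 0.225) in photon and 0.337-fold (0.325 to 0.348) in control. Of 5 measured genes of the acute phase and aldehyde oxidase list, Lcn2, Orm1, Orm3 and Hp were lower in all 3 libraries, with median log2 ratios of -1.87, -2.18 and -1.21. Of all genes, 2.62% were lower in all 3. The lowest ratios of all measured genes included Sorbs2, an adaptor of the actin cytoskeleton, at 0.0947 in proton, 0.0821 in photon and 0.0270 in control, where control rests on 2 UMIs, and Fxyd2, the gamma subunit of the sodium pump, at 0.120 in proton, 0.0870 in photon and 0.239 in control. Fn1, fibronectin, followed with 0.0869 in proton, 0.135 in photon and 0.282 in control, and Chrm3, the muscarinic receptor of secreting gland cells, with 0.233 in proton, 0.156 in photon and 0.258 in control. Id3, an inhibitor of basic helix-loop-helix factors, had 0.511 in proton, 0.501 in photon and 0.588 in control, and Ccn2, a YAP target, 0.347 in proton, 0.301 in photon and 0.487 in control.

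Of 18 measured p53 targets, 11 were lower in proton, 10 in photon and 4 in control, and none was higher in any library. Of all genes, 11.1%, 12.2% and 3.76% were lower. The 4 that were lower in all 3 were Btg2, an antiproliferative gene, Pvt1, a non-coding RNA next to Myc, Trp53inp1, a regulator of p53, and Polk, a translesion polymerase. Cdkn1a (chromosome 17, 29090976 to 29100727), the p21 cell cycle inhibitor, stood at 115 CPM in proton, 156 CPM in photon and 126 CPM in control in keratin-rich and 201, 332 and 175 CPM in other barcodes, ratios of 0.573-fold (0.510 to 0.641) in proton, 0.470-fold (0.434 to 0.509) in photon and 0.719-fold (0.652 to 0.791) in control.

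Dividing all barcodes of a library into 10 equal bins by the summed share of the 4 genes showed how these genes ran with the rule. Krtdap climbed over most bins, with 12.5, 8.99 and 6.26 CPM in the first bin of proton, photon and control. It stood at 425 CPM in the ninth bin and 1338 CPM in the last in proton, 289 and 884 CPM in photon, and 74.4 and 154 CPM in control. Krt16 stood at 12.5 and 49.8 CPM in proton, 28.7 and 149 CPM in photon, and 19.4 and 39.1 CPM in control. Both were highest in the last bin. Krt13 did so in proton, with 83.3 and 307 CPM, and in photon, with 120.1 and 511 CPM, but stood at 165 and 164 CPM in control.

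Itgb4 peaked between the fourth and the eighth bin and stood at 288, 142 and 161 CPM in the last bin of proton, photon and control, against 172, 112 and 117 CPM in the first. The hemidesmosome and basement membrane list summed to 2071, 1639 and 2148 CPM in the last bin and 2341, 1909 and 2345 CPM in the ninth. Lcn2 declined over the order as a whole, with 3515, 4279 and 7052 CPM in the first bin and 499.5, 397 and 972 CPM in the last. Cdkn1a went the same way, at 343, 694 and 354 CPM in the first and 115, 156 and 126 CPM in the last. The basal duct list, which includes Krt17 and Sfn, summed to 3536, 4686 and 4757 CPM in the last bin and 1533, 1809 and 2579 CPM in the first. Itga6 followed another course, at 379, 258 and 334 CPM in the last bin, 346, 286 and 383 CPM in the ninth and 278, 228 and 389.9 CPM in the first.

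**Figure D3:**
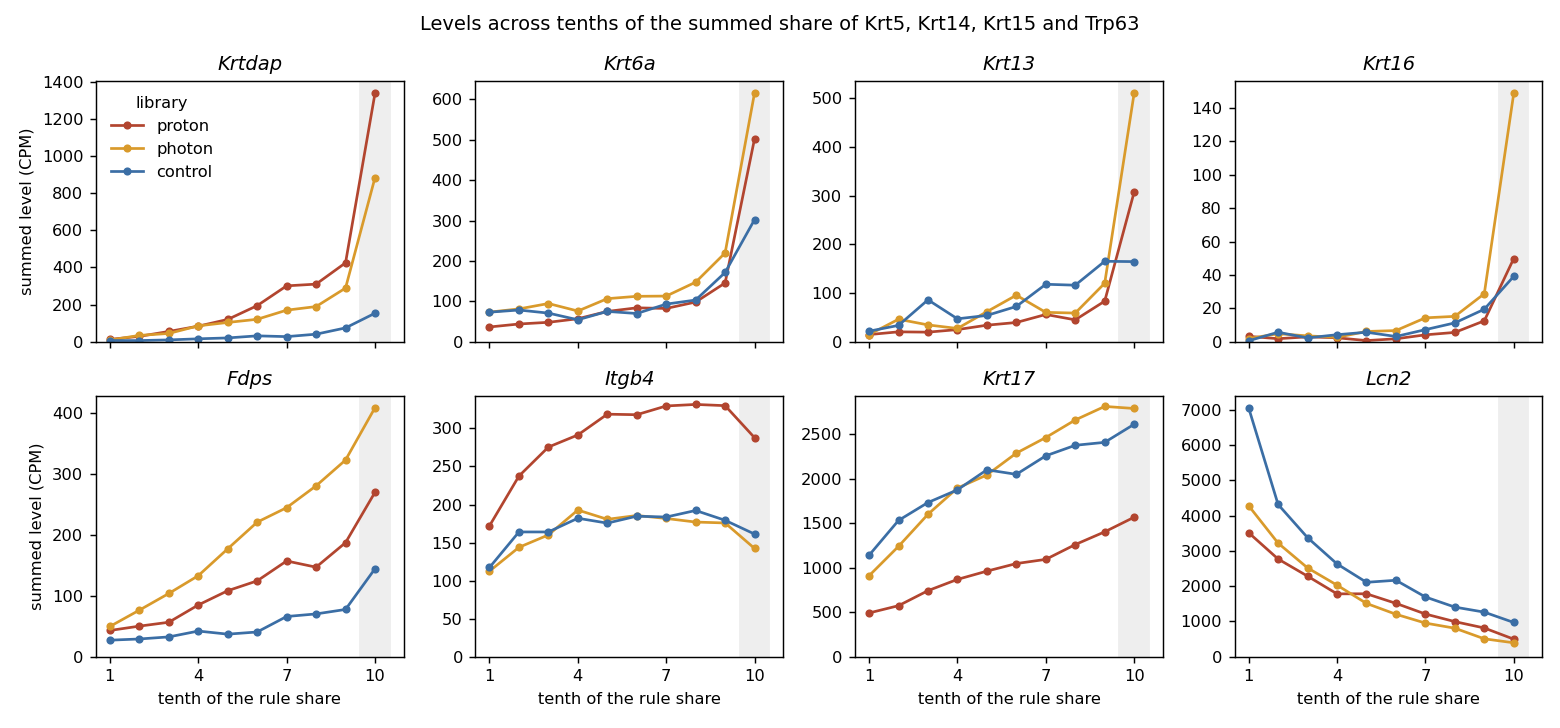
Summed level in CPM of 8 genes in 10 equal bins of barcodes ordered by the share of the 4 rule genes, lowest at left, with 1 line per library and the keratin-rich bin shaded. Krtdap, Krt6a and Krt16 climb into the last bin in all 3 libraries and Krt13 in proton and photon, Itgb4 declines from the ninth to the last bin, and Lcn2 is lowest in the last.

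Barcodes led by Krt14 and barcodes led by Krt15 differed within the keratin-rich set. Krtdap stood at 1661, 1026 and 187 CPM in the Krt14-led barcodes of proton, photon and control and at 496, 462 and 98.4 CPM in the Krt15-led ones. The whole squamous list summed to 3835, 3745 and 2398 CPM against 3055, 3208 and 3814 CPM. In control that list was thus lower with Krt14. Fabp5 stood at 10810, 13540 and 3768 CPM against 5513, 9269 and 4603 CPM, so it was higher with Krt14 in both irradiated libraries and lower in control. The G2 and M phase list summed to 1296, 1450 and 317 CPM against 597, 479 and 117 CPM. The p53 target list summed to 1515, 1565 and 1668 CPM against 3217, 2295 and 2097 CPM, and Lcn2 to 385, 327 and 634 CPM against 1049, 678 and 1513 CPM, both higher with Krt15 in each library. Since the rule genes define the groups, and proton holds 81 Krt15-led barcodes, these are values without a test.

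The first comparison between libraries asked how irradiated keratin-rich barcodes differed from those of control. Transcripts induced by type I interferon were far more abundant after both kinds of radiation. Of 42 listed genes, 29 were measured, of which 26 were higher in proton and 28 in photon, and 1 was lower in each. Of all genes, 11.2% were higher and 19.5% lower in proton, and 6.21% were higher and 14.8% lower in photon. The median log2 ratio of the list was 3.08 in proton and 3.41 in photon, beside -0.073 and -0.137 over all genes. In the other barcodes the same list had medians of 3.21 in proton and 3.36 in photon. Genes that control hardly held, such as Ifit3, entered only through the irradiated libraries, which raises these counts and medians. The sum over all 42 genes was 19630 CPM in proton, 18860 CPM in photon and 6092 CPM in control, a ratio of 3.22 in proton and 3.1 in photon, against 3.52 and 3.65 in the other barcodes.

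Isg15 (ENSMUSG00000035692, chromosome 4, 156199424 to 156200818, reverse strand), a ubiquitin-like modifier, stood at 658 CPM in proton, 1087 CPM in photon and 44.4 CPM in control, or 14.8-fold (12.6 to 17.5) in proton and 24.5-fold (20.9 to 28.8) in photon over control. Ifi27l2a, a mitochondrial interferon-inducible protein, stood at 7106 CPM in proton, 4545 CPM in photon and 269.8 CPM in control, 26.3-fold (24.7 to 28.1) in proton and 16.9-fold (15.8 to 18.0) in photon. Bst2, the tetherin that holds budding virus at the membrane, stood at 1170 CPM in proton, 1429 CPM in photon and 99.2 CPM in control, 11.8-fold (10.6 to 13.2) and 14.4-fold (12.9 to 16.1). Ifit3 (ENSMUSG00000074896, chromosome 19, 34583531 to 34588731, forward strand), an RNA-binding antiviral effector, stood at 98.9 CPM in proton, 224 CPM in photon and 0.551 CPM in control, where control rests on 2 UMIs, so the ratios of 179.5-fold (49.2 to 1489) and 406-fold (112 to 3354) are loose. The GTPase Iigp1 had no UMI in control, and against a floor of 3 UMIs over its keratin-rich barcodes it was at least 62.4-fold higher in proton and at least 66.6-fold higher in photon. Ifi27, a relative of Ifi27l2a, was the lower one, at 15.3 CPM in proton, 20.5 CPM in photon and 195 CPM in control.

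The promoters of Isg15 and Ifit3 are shown because this list shares the interferon-stimulated response element, searched on both strands as GAAA, any 2 bases and GAAA. The 250 bases before each RefSeq start (GRCm38.p6; Isg15 on the reverse and Ifit3 on the forward strand, read 5′ to 3′) carry the matches in capitals. Isg15 has 3 matches that overlap one another, and Ifit3 has 2 on its opposite strand.
Isg15 chr4:156200819-156201068: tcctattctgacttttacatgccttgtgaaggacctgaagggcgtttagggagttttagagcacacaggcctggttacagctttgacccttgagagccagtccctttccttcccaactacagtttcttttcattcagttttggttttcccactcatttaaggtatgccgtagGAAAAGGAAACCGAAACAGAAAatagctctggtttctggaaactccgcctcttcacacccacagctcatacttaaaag
Ifit3 chr19:34583279-34583528: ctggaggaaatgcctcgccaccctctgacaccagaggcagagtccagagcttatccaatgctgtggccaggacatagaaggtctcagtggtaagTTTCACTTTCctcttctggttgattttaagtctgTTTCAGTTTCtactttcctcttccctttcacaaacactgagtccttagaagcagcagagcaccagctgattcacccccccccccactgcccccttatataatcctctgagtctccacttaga
The element was found in 21 of 32 interferon genes with a promoter in the table (65.6%) and in 1079 of 27025 genes (3.99%), and in none of the 11 squamous and 11 cholesterol genes.

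MHC class I presentation genes were higher as well. Of 13 measured genes of the 18 listed, 9 were higher in proton and 13 in photon, with none lower, at median log2 ratios of 1.78 and 2.20. Of all genes, 11.2% were higher in proton and 6.21% in photon. H2-Q7, a non-classical class I molecule, stood at 209.6 CPM in proton, 239 CPM in photon and 5.79 CPM in control, or 36.2-fold (23.5 to 59.0) in proton and 41.4-fold (26.9 to 67.1) in photon, and shares 11.8% of its 50-base words with H2-Q5 and H2-Q10. The ratio of the irradiation ratios, keratin-rich over other barcodes, was 1.11 (0.936 to 1.31) in proton and 0.965 (0.818 to 1.14) in photon for Isg15, and 0.979 (0.611 to 1.57) and 0.889 (0.556 to 1.42) for H2-Q7, with intervals that include 1. Over the interferon list the median log2 difference between the sides of the cut was -0.02 in proton and 0.02 in photon. Ccl5, a T cell chemokine, stood at 52.3 CPM in proton, 23.2 CPM in photon and 0.827 CPM in control in keratin-rich and 257, 184 and 1.04 CPM in other barcodes, and 10 barcodes held 89.1% of its keratin-rich UMIs in proton and 78.9% in photon.

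**Figure D4:**
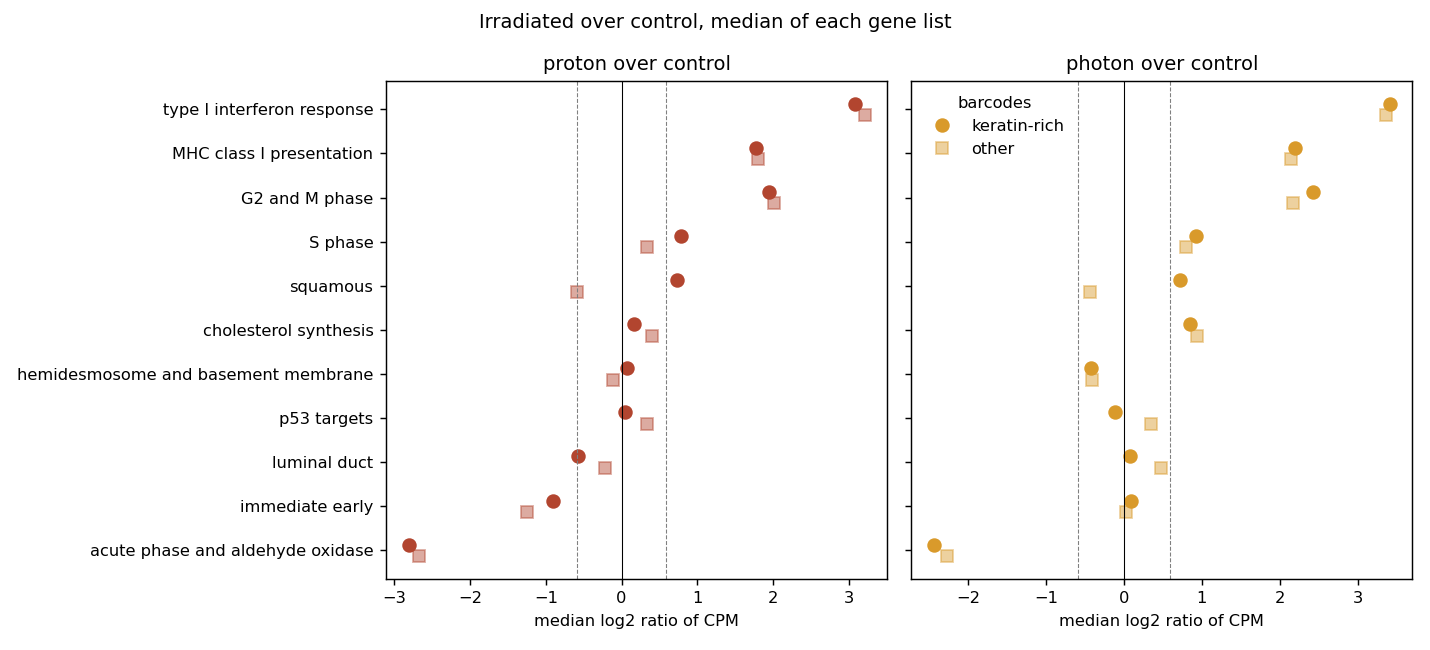
Median log2 ratio of CPM over the measured genes of 11 lists, proton over control at left and photon over control at right, with circles for keratin-rich and squares for other barcodes and dashed lines at 1.5-fold. Genes were measured on each side alone, so the sides can hold different genes of a list. The interferon list is at 3.08 and 3.41 in keratin-rich and at 3.21 and 3.36 in other barcodes, and the S phase list at 0.79 and 0.92 and at 0.33 and 0.8, while the squamous list is at 0.73 and 0.72 in keratin-rich and at -0.59 and -0.44 in other barcodes.

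Cell cycle genes were higher in irradiated keratin-rich barcodes. All 9 measured G2 and M phase genes of the 36 listed were higher in proton and all 12 in photon, with median log2 ratios of 1.95 and 2.43. Control lay under the 25 CPM limit for genes such as Mki67, so these genes entered through the irradiated libraries and had to be higher there. The whole list of 36 summed to 1196 CPM in proton, 1249 CPM in photon and 248.5 CPM in control. Mki67, a proliferation antigen, stood at 77.6 CPM in proton, 43.5 CPM in photon and 8.27 CPM in control, or 9.38-fold (6.39 to 14.2) and 5.27-fold (3.56 to 8.03), and Ube2c, a ubiquitin-conjugating enzyme of mitotic exit, at 109 CPM in proton, 121 CPM in photon and 12.7 CPM in control, or 8.59-fold (6.28 to 12.0) and 9.57-fold (7.07 to 13.2). The irradiation ratio of Mki67 in keratin-rich barcodes was 2.28 (1.53 to 3.40) times that in the other barcodes in proton and 1.5 (1.00 to 2.25) times in photon. The irradiation ratio was at least 1.5-fold larger in keratin-rich barcodes for 6 of 9 G2 and M phase genes in proton and 2 of 12 in photon. These genes passed the limit by their level in keratin-rich barcodes alone, which favours a larger ratio there. Over all genes measured on both sides, an unlike set, it was larger for 1.05% and smaller for 2.79% in proton. In photon it was larger for 0.644% and smaller for 2.31%. S phase genes were higher in 6 of 9 in proton and 10 of 11 in photon. For both cell cycle lists, the share of all genes higher over control in keratin-rich barcodes was 11.2% in proton and 6.21% in photon. Control held few such transcripts, 30 UMIs of Mki67 among its keratin-rich barcodes.

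Most measured squamous genes were higher in the irradiated keratin-rich barcodes, and most were not in the irradiated other barcodes. The 25 CPM limit was applied on each side alone, so the sides hold different genes. Genes such as Krt16 were measured in the keratin-rich barcodes alone, where they are high, and this can raise the ratios on that side. Summed over all 15 listed genes, the irradiated level was 1.147-fold control in proton and 1.175-fold in photon in keratin-rich barcodes. In the other barcodes it was 0.612-fold and 0.666-fold. In the keratin-rich barcodes 5 of 9 measured genes were higher in proton and 6 of 10 in photon, and Sprr1a was lower in both, with median log2 ratios of 0.73 and 0.72. In the other barcodes 1 of 7 measured genes was higher in each, 4 were lower in proton and 2 in photon, with medians of -0.59 and -0.44. Over all genes in keratin-rich barcodes, 11.2% were higher and 19.5% lower in proton, and 6.21% and 14.8% in photon. In the other barcodes these shares were 12.5% and 15.5% in proton and 6.07% and 7.82% in photon. The irradiation ratio was at least 1.5-fold larger in keratin-rich barcodes for 5 of 9 genes in proton and 7 of 10 in photon, and lower for Sprr1a in proton. The limit was applied to the keratin-rich barcodes alone here. Among all genes measured on both sides, it was larger for 1.05% in proton and 0.644% in photon. The photon count of 7 includes Sprr2d, which came from 14 photon barcodes and turned round in the top 20%, without luminal-rich members and without high-UMI barcodes.

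Krt13 was 1.87-fold (1.68 to 2.08) in proton and 3.10-fold (2.83 to 3.40) in photon over control in keratin-rich barcodes, against 0.473 and 0.737 in the others, a ratio of ratios of 3.95 (3.48 to 4.49) in proton and 4.21 (3.78 to 4.69) in photon. Without the 10 barcodes richest in it on each side and library, that ratio of ratios was 2.17 (1.84 to 2.57) in proton and 2.74 (2.38 to 3.16) in photon. Krt6a was 1.66-fold (1.54 to 1.80) and 2.04-fold (1.90 to 2.19) against 0.850 and 1.30, and Krt10 2.13-fold (1.62 to 2.82) and 1.80-fold (1.38 to 2.35) against 0.506 and 0.882. Krtdap was higher on both sides, by 8.72-fold (7.97 to 9.55) and 5.76-fold (5.27 to 6.31) in keratin-rich and 6.60 and 4.56 in other barcodes. Krt16 was 1.27-fold (1.00 to 1.62) in proton and 3.8-fold (3.16 to 4.59) in photon. Sprr1a, a precursor that is induced in stressed epithelia, was 0.345-fold (0.328 to 0.363) and 0.411-fold (0.394 to 0.428), so lower than control. Since the cut was set within each library, and the level of the 4 rule genes differed between libraries, the same percentile need not mean the same state.

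Other epithelial genes also separated irradiated from control keratin-rich barcodes. Plac8, a cysteine-rich protein, stood at 87.9 CPM in proton, 91.2 CPM in photon and 0.827 CPM in control, and Calm4, a calmodulin-like protein of differentiating keratinocytes, at 32.4 CPM in proton, 50.6 CPM in photon and 0.551 CPM in control, with 3 and 2 UMIs in control. Their proton ratios were 106-fold (36.0 to 519) and 58.8-fold (15.8 to 492) and their photon ratios 110.3-fold (37.5 to 538) and 91.8-fold (25.1 to 764). Fabp5 was 2.23-fold (2.19 to 2.28) in proton and 3.01-fold (2.95 to 3.06) in photon, Lgals7 2.71-fold (2.50 to 2.95) and 3.35-fold (3.10 to 3.62), and S100a6, a calcium-binding protein, 1.69-fold (1.67 to 1.72) and 1.62-fold (1.59 to 1.65). The hemidesmosome list had a median log2 ratio of 0.07 in proton, with 3 of 16 genes higher and 2 lower, and of -0.43 in photon, with 4 of 14 lower. Over all genes, 11.2% were higher and 19.5% lower in proton, and 14.8% were lower in photon. Itga3, the laminin-binding integrin alpha-3, was 2.84-fold (2.39 to 3.38) in proton and 1.16-fold (0.954 to 1.40) in photon.

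Cholesterol synthesis genes were higher in photon, with 8 of 12 measured, and 1 of 12 was higher in proton. Over all genes, 6.21% were higher in photon and 11.2% in proton, so the proton count is near the share of all genes. Fdps was 1.87-fold (1.67 to 2.09) in proton and 2.83-fold (2.56 to 3.13) in photon, and Cyp51 1.22-fold (1.07 to 1.39) and 2.21-fold (1.99 to 2.46). In the other barcodes 6 of 10 were higher in photon, against 6.07% of all genes there.

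The p53 targets gave different counts on either side of the cut. In keratin-rich barcodes none of 16 measured targets was higher in photon and 2 were lower, and 4 of 17 were higher and 3 lower in proton, with median log2 ratios of -0.11 and 0.04 beside -0.137 and -0.073 over all genes. In the other barcodes 7 of 18 were higher in photon and none lower, and 9 of 20 were higher and 3 lower in proton, with a median of 0.34 in each. Of all genes in the other barcodes, 6.07% were higher and 7.82% lower in photon and 12.5% higher and 15.5% lower in proton, with medians of -0.106 and 0.007. Cdkn1a was 0.915-fold (0.791 to 1.06) in proton and 1.24-fold (1.10 to 1.40) in photon in keratin-rich barcodes, against 1.15 and 1.90 in the others, so its photon ratio was 0.654 (0.577 to 0.740) times that of the others. Mdm2, the ubiquitin ligase of p53, was 1.72-fold (1.43 to 2.06) and 1.00-fold (0.832 to 1.21) against 2.16 and 1.76, and Zmat3, an RNA-binding target, 1.34-fold (1.02 to 1.76) and 0.772-fold (0.580 to 1.03) against 2.65 and 1.53. For 6 of the 16 genes in photon and 2 of the 17 in proton the irradiation ratio was at least 1.5-fold smaller in keratin-rich barcodes. Among all genes measured on both sides it was smaller for 2.31% in photon and 2.79% in proton. The share of ribosomal protein UMIs differed between the sides as well, and its part in these values was not tested.

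Genes lower after irradiation included secretory and detoxifying ones. Orm1, an acute phase glycoprotein, stood at 7.83 CPM in proton, 13 CPM in photon and 79.1 CPM in control, Cyp2f2, a cytochrome P450 of secretory epithelia, at 23.8 CPM in proton, 28.6 CPM in photon and 180.5 CPM in control, and Aox3, an aldehyde oxidase, at 9.61 CPM in proton, 8.80 CPM in photon and 69.4 CPM in control. All 4 measured genes of the acute phase and aldehyde oxidase list were lower in both irradiated libraries, with median log2 ratios of -2.81 in proton and -2.44 in photon. Of all genes, 19.5% were lower in proton and 14.8% in photon. Orm1 and Aox3 passed the 25 CPM limit through control alone, so they had to be lower in the irradiated libraries. Atp1b1, the beta subunit of the sodium pump, was 0.171-fold (0.145 to 0.200) and 0.263-fold (0.234 to 0.295), and Errfi1, a feedback inhibitor of the EGF receptor, 0.193-fold (0.161 to 0.230) and 0.274-fold (0.240 to 0.312). Hp, haptoglobin, was 0.147-fold (0.0863 to 0.237) in proton and 0.207-fold (0.142 to 0.295) in photon in keratin-rich barcodes, but 0.704 and 1.20 in the others.

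Of called genes, 36.6% were higher in proton and 29.6% in photon over control. Scaling by the median of gene ratios in place of CPM moved the photon share to 54.1% and the proton share to 45.4%, since it removes the shift of -0.137 and -0.073 log2 units seen over all genes.  Malat1, a nuclear non-coding RNA, stood at 9463 CPM in proton, 14170 CPM in photon and 28030 CPM in control, and Neat1, another, at 521 CPM in proton, 265 CPM in photon and 665 CPM in control.

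The keratin-rich barcodes of proton were compared with those of photon directly. Immediate early genes were lower in proton, in 8 of 12 measured with none higher, against 17.8% of all genes lower and 22% higher, with a median log2 ratio of -0.96. Jun, a subunit of AP-1, stood at 149 CPM in proton, 654 CPM in photon and 854 CPM in control, so proton was 0.228-fold (0.205 to 0.253) the photon level. Over control, 10 of 13 immediate early genes were lower in proton, and in photon 1 was higher and 2 were lower. Of all genes over control, 19.5% were lower in proton, and 6.21% were higher and 14.8% lower in photon. The other barcodes gave 10 of 13 lower in proton as well. Cholesterol synthesis genes were lower in proton in 7 of 13, with a median of -0.60, and chemokines in 6 of 8, with Ccl5 the 1 that was higher. Several chemokine values, that of Ccl5 among them, rest on few barcodes. Without the 10 barcodes richest in each gene, Cxcl3 was at 0.311 (0.0573 to 1.11), Cxcl10 at 0.331 (0.175 to 0.586) and Cxcl1 at 0.26 (0.198 to 0.337). Cxcl10 was at 1.11 in the top 5%.

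Hemidesmosome and basement membrane genes were higher in proton than in photon, in 7 of 16 measured and with none lower, at a median log2 ratio of 0.48. Itgb4 was 2.02-fold (1.82 to 2.25) and Itga3 2.46-fold (2.10 to 2.88). The list also summed to more in proton outside the set, at 2341 CPM against 1909 CPM in photon in the ninth bin of the rule share. Of all genes in keratin-rich barcodes, 22% were higher and 17.8% lower in proton than in photon. Of 5 measured Notch genes 4 were higher and Hes1, a Notch target, was lower at 0.628-fold, with Jag1, a Notch ligand, at 1.78-fold and Notch1, a receptor, at 1.79-fold. Also high in proton were Lars2, a mitochondrial leucyl-tRNA synthetase gene, at 247 CPM in proton, 48.2 CPM in photon and 51.8 CPM in control, and the ribosomal RNA-like model Gm42418, at 13000 CPM in proton, 3567 CPM in photon and 4078 CPM in control. The other barcodes showed the same split, with 13230, 3888 and 3994 CPM of Gm42418. These transcripts were high in the proton library on both sides of the cut, and their part in the proton and photon difference was not tested.

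Some of the largest values rested on few barcodes. Psca, a cell surface antigen of glandular and squamous epithelia, stood at 5.69 CPM in proton, 178 CPM in photon and 17.1 CPM in control, from 4 barcodes in proton, 11 in photon and 21 in control. The 10 barcodes richest in it held 99.9% of its photon UMIs, and without the 10 richest of each library no UMI is left in proton, so that the proton over photon ratio of 0.0319 has no value then. Sprr2f and Sprr2d, cornified envelope precursors, were found in 22, 16 and 10 and in 11, 14 and 12 barcodes of proton, photon and control. Cxcl2, a neutrophil chemokine, was found in 17, 38 and 33 barcodes, with 94.0%, 86.2% and 79.0% of UMIs in the top 10.

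Krt13 and Krt16 came from more cells, 158, 284 and 170 barcodes for Krt13 and 66, 160 and 60 for Krt16, with 48.8%, 43.3% and 43.0% and 42.1%, 39.3% and 50.0% of UMIs in the top 10. Krtdap was broader still, with 344, 402 and 138 barcodes and 13.8%, 14.2% and 33.9%. After thinning each barcode to 2000 UMIs, a summed squamous count above the 90th percentile of the other barcodes was reached by 19.9% (17.2 to 22.9) of keratin-rich barcodes in proton, 15.6% (13.5 to 17.9) in photon and 10.6% (8.73 to 12.7) in control. The other barcodes gave 9.5% (8.83 to 10.2), 9.38% (8.81 to 9.97) and 9.97% (9.34 to 10.6). These intervals cover the counting of barcodes within 1 library and compare no conditions. Sprr1a, the gene of the list with the most UMIs in control, takes part in this sum.

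**Figure D5:**
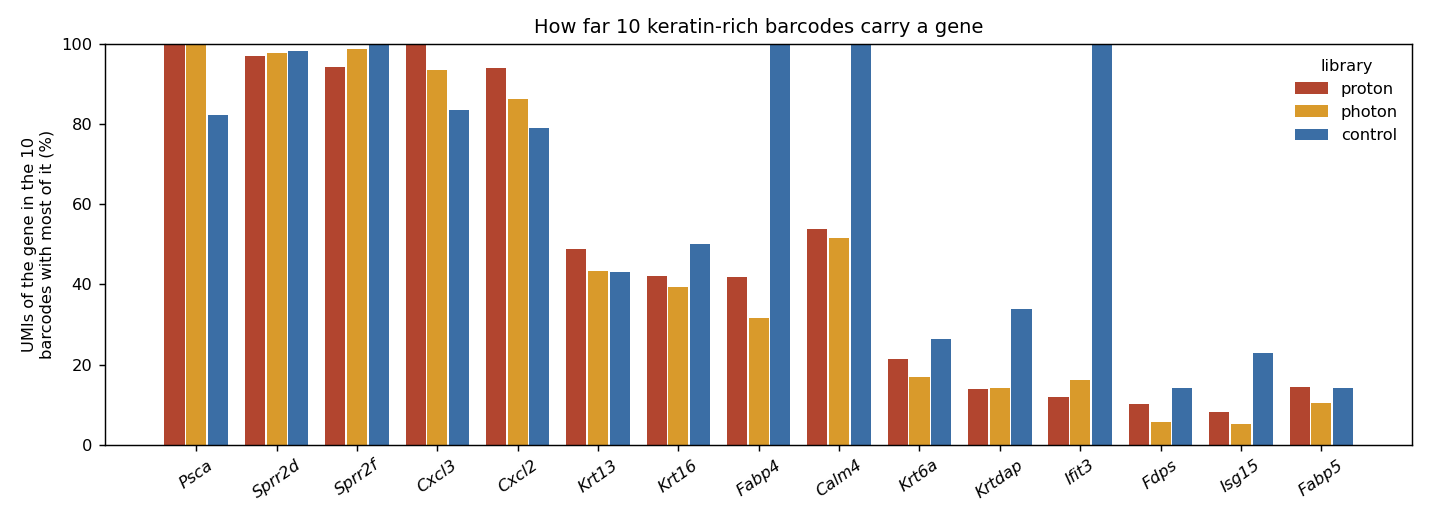
Percent of a gene's UMIs in keratin-rich barcodes that came from the 10 barcodes with most of it, for 15 genes in proton, photon and control. Psca, Sprr2d, Sprr2f, Cxcl3 and Cxcl2 lie at 79.0% or above in each library, while Fabp5 lies between 10.3% and 14.3%.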

How the data were processed

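The authors deposited 1 matrix of raw UMI counts per gene and barcode for each library, made with Cell Ranger 7.0.1 against mm10 per the submitters' processing notes, while the matrix headers name 7.0.0. For strand use, intronic reads and annotation release, details were not given in the sources used here. Keratin-rich barcodes, gene lists and named genes were chosen with earlier results of these data known.

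Counts were summed over barcodes and scaled to CPM. Ratios carry exact 95% intervals from the binomial distribution of 2 counts, and ratios of ratios carry intervals from the summed variances of the log counts. All intervals cover counting error only, not differences between cells, animals or cultures. Where a sum was 0, 3 counts served as its floor. With 1 library per group no count model was fitted. The ratio steps were tested on simulated counts.

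Named genes were the 12 highest and 12 lowest ratios of each comparison between libraries, the 15 highest and 12 lowest of keratin-rich over other barcodes, the 8 highest and 8 lowest ratios of ratios, and the members of the lists. No doublet caller was run. An alternative left out members above the median share of luminal keratins in the other barcodes, called luminal-rich here. It kept 471 of 793 members in proton, 695 of 1089 in photon and 444 of 962 in control. Another left out barcodes in the top 10% of UMIs, called high-UMI here. Alternatives changed the share of barcodes taken, the cut, the scaling, the filters and the depth per barcode. A further one, chosen after seeing the data, left out the 10 barcodes richest in a gene. Gene coordinates are those of GENCODE M21 (GRCm38), where 495 of 495 IDs looked up were matched, and promoters those of RefSeq (GRCm38.p6). Python 3.11.15, numpy 2.4.6, scipy 1.17.1, pandas 2.3.3 and matplotlib 3.10.9 were used. Some genes are not reported here.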

Additional observations from a re-analysis of the deposited data

Results flagged for a closer look

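Each of these results was picked out because 2 effects under the same contrast pointed in opposite directions, and with 1 library per group none of the differences was tested.

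Some genes were above control in the keratin-rich barcodes of proton and below it in those of photon. Proton was 4.29-fold the photon level for Bnc2, a zinc finger protein of keratinocytes, 3.81-fold for Dach1, a developmental transcription factor, 3.58-fold for Rora, a nuclear receptor, and 3.26-fold for Adam12, a metalloprotease. It was 3.19-fold for Firre, a nuclear non-coding RNA, and 3.19-fold for Mknk2, a kinase of a translation initiation factor. In the other barcodes the same direction was seen for Bnc2, at 45.0 CPM in proton, 17.5 CPM in photon and 28.4 CPM in control.

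The reverse, proton below and photon above control, held for 3 genes. Proton was 0.0319-fold the photon level for Psca, 0.229-fold for Mal, a membrane protein of apical transport, and 0.342-fold for Ppbp, a chemokine. Psca rests on few barcodes, and without the 10 barcodes richest in it the ratio of Mal was 0.637.

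Other genes pointed one way in the keratin-rich and the opposite way in the other barcodes. The photon over control ratio in keratin-rich barcodes was 15.9 times that of the others for Psca, 4.45 times for Sprr2f and 3.64 times for Ppbp. It was 0.335 times for Adam12, 0.38 times for Fst, the activin antagonist follistatin, and 0.382 times for Apoe, the apolipoprotein. The proton over control ratio was 3.95 times that of the others for Krt13, 0.308 times for Fn1 and 0.315 times for Tm4sf1, a membrane protein of migrating cells. Without the 10 barcodes richest in the gene on each side, a setting added after the values were seen, the photon values were 1.84 for Ppbp, 0.5 for Psca and 0.624 for Fst, and the proton values 2.17 for Krt13 and 0.634 for Tm4sf1. Fn1 stood at 7.47 CPM in proton, 7.34 CPM in photon and 12.9 CPM in control in keratin-rich barcodes, against 86.0, 54.4 and 45.9 CPM in the others.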

How the results depend on the processing

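No paired analysis was possible because each group is 1 library, and for the same reason no replicate could be left out. The 12 counts of genes past 1.5-fold were recomputed under 12 alternatives each, and 113 of 144 values stayed within 1.5 times the main count. A level of at least 10 CPM in place of 25 CPM gave 1125 higher genes in proton over control (629 in the main setting), 569 higher and 1401 lower in photon over control (337 and 802), 1915 higher in proton over photon (1185), and 110 higher and 229 lower in keratin-rich over other barcodes (69 and 149). Scaling by the median of gene ratios gave 548 higher and 465 lower in photon over control and 92 lower in keratin-rich over other barcodes, and taking the top 5% gave 250 lower there.

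The counts of genes whose irradiation ratio differed between the sides of the cut moved most. For proton, 57 ratios were larger in keratin-rich barcodes, against 188 with control's cut in all libraries, which leaves 136 proton barcodes, 174 at 10 CPM, 32 in the top 20%, 130 in the top 5%, 88 without cycling barcodes and 131 without luminal-rich members. Smaller were 151, against 874, 384, 70 and 352 in the first 4 of these settings, 242 after thinning and 325 without luminal-rich members. For photon, 34 were larger, against 18 in the top 20%, 67 in the top 5%, 109 at 10 CPM, 53 without cycling barcodes and 73 without luminal-rich members. Smaller were 122, against 347 at 10 CPM, 230 after thinning, 216 in the top 5% and 274 without luminal-rich members.

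Of the planned values of named genes past 1.5-fold, 2207 of 2220 kept their direction. Those that reversed follow as log2 values, and the cause was not tested. Without luminal-rich members, Spink5 in control was at -0.023, Tm4sf1 relative to the other barcodes at 0.817 in proton and 0.369 in photon, and Sprr2d at 1.383 in proton over photon and -1.904 in photon relative to the others. Without high-UMI barcodes, Psca was at 0.174 and Sprr2d at 1.132 in proton over photon, Sprr2f relative to the others at -0.114 in proton and -2.516 in photon, and Sprr2d at -2.456 in photon. Cxcl10 in proton over photon was at 0.150 in the top 5%, Sprr2d in photon relative to the others at -0.228 in the top 20%, and with control's cut Sprr2d and the median of the 4 rule genes in proton over photon were at 0.785 and 0.194. Without the 10 barcodes richest in a gene, Psca was at 2.122 in proton over photon and -0.999 in photon relative to the others, Fabp4 in control at -1.356, Cxcl3 in photon at -0.268 and Cxcl2 in proton at -0.021 relative to the others, of which Psca in proton over photon and Fabp4 in control rest on sums of 0 set to the floor.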
